A study of Mus musculus with 12 samples.

Results

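Expression of 10 genes was described in developing Schwann cells of the mouse sciatic nerve. They are the 3 Jun genes (Jun, Junb and Jund), the 4 Fos genes (Fos, Fosb, Fosl1 and Fosl2), Atf3, Ier2 and Egr1. They were found by their mouse Ensembl identifiers among the 25700 genes of the count table, and all 10 passed the expression filter that left 18597 genes for testing.

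Jun and Fos proteins are basic leucine zipper factors that pair with each other to form AP-1, a transcription factor that binds short palindromic DNA sites. Most of their genes are immediate early genes, which cells transcribe within minutes of a growth factor, a depolarization or a stress, because the factors that switch them on are already present and are activated by MAP kinases. In Schwann cells, c-Jun, the product of Jun, is known for opposing myelination and for driving the repair program after nerve injury.

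The cells came from sciatic nerves of mice at postnatal day 5. All mice carried 1 copy of a Cre transgene whose promoter is active in the Schwann cell lineage and were ReYFP(Tg/+) and βAct-DsRed(Tg/+) on a C57bl/6J background, so that Cre switched on eYFP in that lineage, while DsRed was made in all cells. Nerves were dissociated with warm enzymes, and eYFP-positive cells were sorted by granularity (side scatter) into 3 gates. The allSC gate took all of them, mSC the granular cells, enriched in myelinating Schwann cells, and nmSC the less granular cells, enriched in cells that were not myelinating. No treatment, injury or undissociated control belongs to these 12 libraries. Each gate holds 4 libraries, numbered from 1 to 4, and libraries that share a number have the same subject in the sample labels, taken here as the same mouse. Each gate holds libraries from 2 male and 2 female mice, but the labels do not say which. The bulk RNA was amplified by PCR without molecular identifiers, so the floor given below for low counts covers counting error only.

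The libraries held between 8180927 and 16918122 counted reads. Levels are given as CPM, the counts of a gene scaled to the total of its library after TMM normalization, and 3 counts corresponded to between 0.198 and 0.374 CPM. The Schwann cell factor gene Sox10 was at a mean of 267 CPM in mSC (124.3 to 337) and 266 CPM in nmSC (206.7 to 325.3). Without TMM, its log2 fold change of mSC against nmSC was -0.59 (adjusted p = 0.0655 in edgeR). S100b, which codes for a calcium-binding protein of Schwann cells, was higher in mSC by 3.06 on the log2 scale (SE 0.17, adjusted p = 3.05e-11). In bulk libraries, fewer cells of a type and less RNA per cell cannot be told apart, and this holds for every level below.

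Jun and Fos are the founding partners of AP-1, and Atf3 codes for a related zipper protein that can pair with Jun. Bases directly upstream of their RefSeq start sites are shown because these 3 genes had a match to a motif searched. For Atf3 this start lies inside the annotated extent of the gene given below. The 250 bases are from RefSeq on GRCm38.p6, written 5′ to 3′ on the strand of the gene, for Jun at chr4:95052223-95052472 (minus strand), for Fos at chr12:85473640-85473889 (plus strand) and for Atf3 at chr1:191183334-191183583 (minus strand). Capitals mark TGACATCA in Jun, TGACGT in Fos, and the reverse complement of TGACGT in Atf3.
Jun: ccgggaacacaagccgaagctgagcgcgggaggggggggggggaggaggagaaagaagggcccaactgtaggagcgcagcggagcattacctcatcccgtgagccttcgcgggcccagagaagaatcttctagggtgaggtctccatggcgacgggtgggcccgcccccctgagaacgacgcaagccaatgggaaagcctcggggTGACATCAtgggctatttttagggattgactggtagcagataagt
Fos: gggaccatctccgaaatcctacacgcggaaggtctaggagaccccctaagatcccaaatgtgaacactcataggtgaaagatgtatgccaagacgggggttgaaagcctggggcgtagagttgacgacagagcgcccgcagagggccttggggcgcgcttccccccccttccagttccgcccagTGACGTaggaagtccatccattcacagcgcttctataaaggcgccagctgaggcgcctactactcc
Atf3: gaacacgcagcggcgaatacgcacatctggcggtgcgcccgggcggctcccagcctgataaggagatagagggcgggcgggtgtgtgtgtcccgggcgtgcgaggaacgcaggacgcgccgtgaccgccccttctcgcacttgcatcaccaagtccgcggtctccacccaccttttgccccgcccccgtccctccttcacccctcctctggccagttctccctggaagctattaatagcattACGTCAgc

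Motifs were searched on both strands over 300 bases, from 250 before to 50 after the RefSeq start. Positions count from the first transcribed base at that start, with -1 just before it. The AP-1-like sequence TGACATCA was searched as a known site of the Jun promoter, so its match in Jun was fixed in advance. It lay at -45 to -38 in Jun and occurred in 3.62% of the 32851 promoter windows of the mouse. TGACGT, the core of the cAMP response element, lay at -66 to -61 in Fos and at -8 to -3, on the other strand, in Atf3, and occurred in 7.51% of windows. The AP-1 site TGANTCA (7.81% of windows), the full response element TGACGTCA (1.79%, a sequence that also contains TGACGT) and the CArG box of serum response factor (1.63%) had no match in the windows of the 7 genes that had one. A match of letters is not evidence that a factor binds there. For Jund the bases before the RefSeq start (70697489 to 70697738) end before its annotated start at 70698949. For Fosl2 they lie inside its annotated extent. These windows therefore do not cover the annotated starts of Jund and Fosl2. The windows of Ier2, Egr1 and Fosl1 are not shown.

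Between mSC and nmSC, 5 of the 10 genes were lower in mSC, namely Ier2, Egr1, Jun, Atf3 and Fosl2, and none was higher by the test (edgeR's quasi-likelihood test, with 0 also at an unadjusted p under 0.05, while DESeq2's Wald test called 1, Junb, with an adjusted p of 0.0442). Their fold changes ran from 5.75 for Ier2 to 1.78 for Fosl2. Fos, the most abundant of the 10 genes, and Junb and Fosb did not pass, with TMM-scaled means slightly above those of nmSC. Of all tested genes, 20.2% were called higher in nmSC and 20.4% higher in mSC. The median log2 fold change was -0.54 over the 10 genes and -0.16 over all tested genes. The libraries of the 2 gates did not overlap for the 5 called genes, as they did not for 17.3% of all tested genes in that direction and 16.8% in the other.

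**Figure D1:**
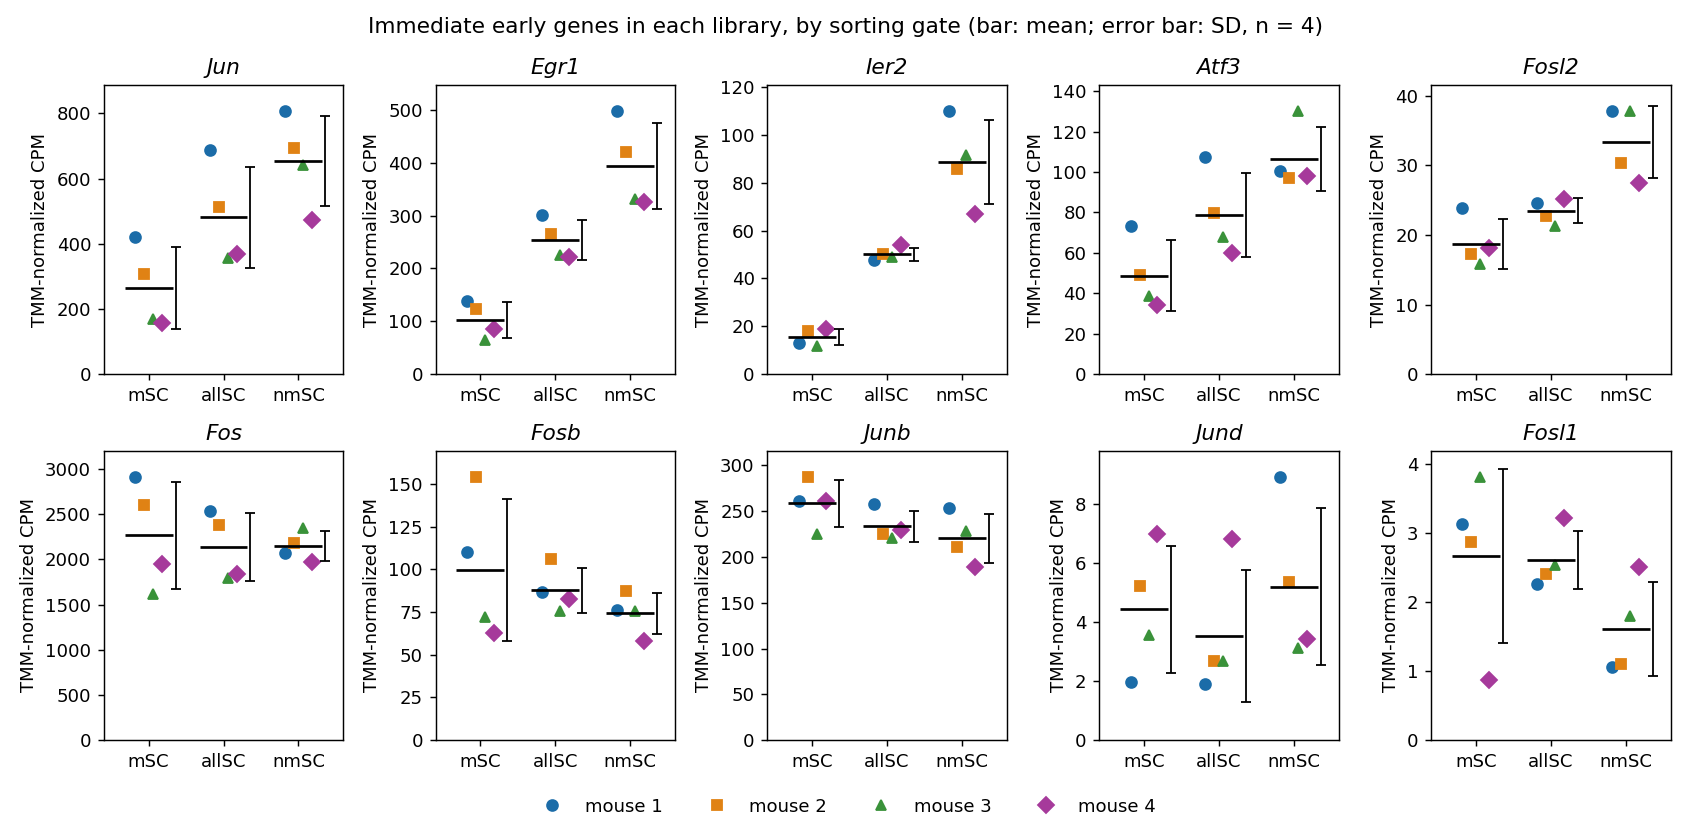
TMM-normalized CPM (y axis) of each of the 10 genes in every library, by gate (x axis). Symbols give the mouse number, the horizontal bar the mean and the error bar the SD of 4 libraries. Jun, Egr1, Ier2, Atf3 and Fosl2 lie lower in all mSC than in all nmSC libraries, while the gates overlap for Fos, Fosb, Junb, Jund and Fosl1.

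Jun (ENSMUSG00000052684) is a single-exon gene on the minus strand of chromosome 4 (GRCm38, 95049034 to 95052222). Its level was 422, 307.8, 169.8 and 157.4 CPM in mSC libraries 1 to 4 and 806.9, 693.5, 640.6 and 474.3 CPM in nmSC libraries 1 to 4. The highest mSC library thus stayed below the lowest nmSC library, and mSC was lower within each of the 4 mice. The log2 fold change was -1.31 (SE 0.27, adjusted p = 7.62e-04 in edgeR; exact permutation p = 0.0286, two-sided, which is the minimum for 4 libraries against 4). The allSC libraries held 687, 512.1, 357.4 and 368.7 CPM. An antisense gene, Junos, overlaps 7.28% of the exon bases of Jun and is not among the listed genes. Smart-Seq2 reads do not keep the strand of the RNA, so reads in shared bases cannot be assigned by strand.

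Junb (ENSMUSG00000052837), a Jun relative that can restrain Jun at some targets, lies on chromosome 8 from 84974484 to 84978718 on the minus strand. It was at 261.3, 287.2, 224.9 and 261 CPM in mSC and at 253, 211.1, 228.2 and 189.2 CPM in nmSC. These ranges overlap, and the log2 fold change was 0.23 (SE 0.12, adjusted p = 0.139). In allSC the level was 234 ± 16.7 CPM (SD, n = 4), so that Junb varied little among gates and among libraries. Its exons share 7.52% of their bases with Prdx2 on the opposite strand.

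Jund (ENSMUSG00000071076, chromosome 8, 70698949 to 70700616, plus strand), the family member whose transcript is usually the most constant, was counted only 26 to 93 times per library. Its level was 1.97, 5.21, 3.57 and 6.99 CPM in mSC and 8.92, 5.35, 3.13 and 3.42 CPM in nmSC. The gates overlapped, and the log2 fold change was -0.25 (SE 0.42, adjusted p = 0.648). An antisense gene, Gm11175, covers 52.6% of its exon bases. At this depth, and with reads that keep no strand, the values of Jund are uncertain.

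Fos (ENSMUSG00000021250) lies on chromosome 12 from 85473890 to 85477273 on the plus strand and was counted between 15581 and 42871 times per library. It was at 2909, 2598, 1619 and 1944 CPM in mSC and at 2075, 2182, 2352 and 1968 CPM in nmSC. The nmSC libraries lay inside the range of the mSC libraries, and the log2 fold change was 0.078 (SE 0.17, adjusted p = 0.724). The allSC libraries, at 2536, 2376, 1791 and 1842 CPM, also lay inside it. Spread was wider in mSC, with an SD of 591 CPM against 164 CPM in nmSC.

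Fosb (ENSMUSG00000003545, chromosome 7, 19302696 to 19310051, minus strand), a Fos relative that also gives a long-lived truncated protein, was at 110.3, 154, 72.35 and 62.75 CPM in mSC and at 76.11, 87.28, 75.73 and 57.8 CPM in nmSC. The ranges overlapped, although 3 of 4 mice had the higher value in mSC (log2 fold change 0.43, SE 0.22, adjusted p = 0.123). Fosl1 (ENSMUSG00000024912, chromosome 19, 5447547 to 5455946, plus strand), which codes for Fra-1, was counted only 7 to 49 times per library. It was at 3.12, 2.87, 3.80 and 0.873 CPM in mSC and at 1.05, 1.104, 1.79 and 2.502 CPM in nmSC (log2 fold change 0.73, SE 0.38, adjusted p = 0.130). Both results depended on mSC library 4, without which Fosb (0.60, adjusted p = 0.0127) and Fosl1 (0.99, adjusted p = 0.0225) were higher in mSC. Fosl1 shares 57.2% of its exon bases with Ccdc85b on the other strand, a listed gene, so its values are uncertain too.

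Fosl2 (ENSMUSG00000029135, chromosome 5, 32135801 to 32157842, plus strand), which codes for Fra-2, had the opposite sign to the other Fos genes under TMM, none of which passed. It was at 23.89, 17.2, 15.76 and 18.09 CPM in mSC and at 37.77, 30.39, 37.75 and 27.52 CPM in nmSC. Every mSC library was below every nmSC library, with a log2 fold change of -0.83 (SE 0.16, adjusted p = 2.87e-04; exact permutation p = 0.0286). The allSC libraries lay between 21.31 and 25.23 CPM, below all nmSC libraries. With library size alone, Fos (-0.48) and Fosb (-0.13) had the same sign as Fosl2 (-1.39), and Fosl1 (0.20) did not. The difference between Fosl2 and the other Fos genes was not tested as such.

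Atf3 (ENSMUSG00000026628), a stress-induced zipper factor and a marker of injured neurons and Schwann cells, was at 73.15, 49.18, 38.82 and 34.05 CPM in mSC and at 100.5, 97.21, 130.1 and 98.22 CPM in nmSC. It was lower in all mSC libraries (log2 fold change -1.12, SE 0.21, adjusted p = 3.22e-04; exact permutation p = 0.0286). In allSC it was at 107.3, 79.5, 68.09 and 59.81 CPM, overlapping both other gates. Its annotated extent runs from 191170296 to 191218039 on the minus strand of chromosome 1. The Atf3 bases printed above lie inside this extent, at 191183334 to 191183583, and not upstream of its outermost start.

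The widest gaps belonged to the 2 genes that are not zipper factors. Ier2 (ENSMUSG00000053560), a single-exon gene on the minus strand of chromosome 8 (84661331 to 84662852) whose short-lived nuclear protein is made early after growth factors, was at 13.17, 17.9, 11.96 and 18.96 CPM in mSC and at 109.9, 85.83, 91.55 and 67.08 CPM in nmSC. Egr1 (ENSMUSG00000038418, chromosome 18, 34859823 to 34864984, plus strand), a zinc finger factor also called Krox24 and a target of ERK signaling, was at 139.1, 123.5, 64.67 and 84.7 CPM in mSC and at 497.6, 421.3, 331.8 and 325.2 CPM in nmSC. For both genes every nmSC library stood well clear of every mSC library. The allSC libraries lay in the gap, at 47.71 to 53.88 CPM for Ier2 and 221 to 302 CPM for Egr1. The log2 fold changes were -2.52 for Ier2 (SE 0.17, adjusted p = 7.46e-10) and -1.94 for Egr1 (SE 0.21, adjusted p = 3.39e-07).

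**Figure D2:**
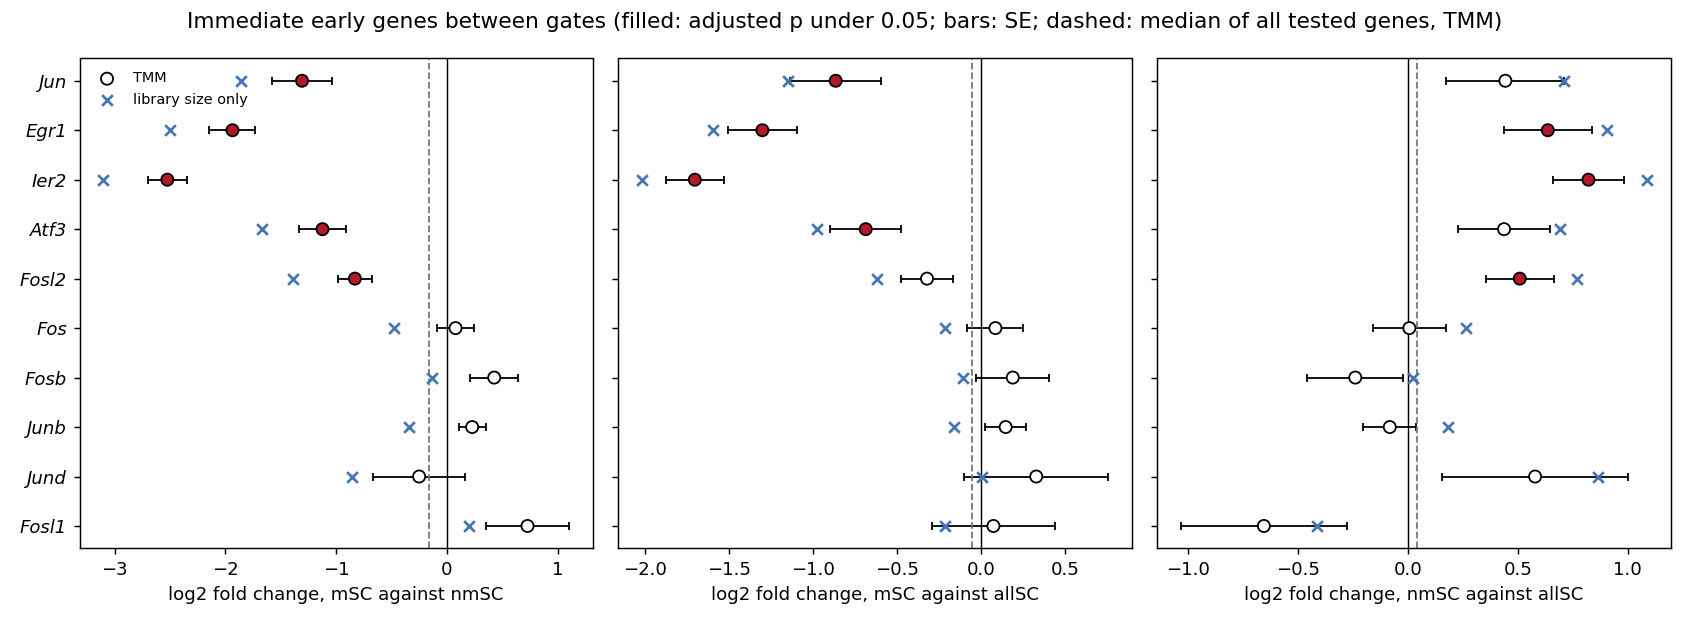
Log2 fold change (x axis) of each gene (y axis) in the 3 comparisons of gates. Circles are from TMM scaling with bars of 1 SE and are filled where the adjusted p was under 0.05, crosses are from library size alone, and the dashed line is the median of all tested genes under TMM. Ier2 at -2.52 and Egr1 at -1.94 lie farthest to the left in the comparison of mSC with nmSC, and the crosses for Fos, Junb and Fosb lie on the other side of 0 from their circles.

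The 2 gates differ in RNA composition, and the scaling of the libraries moved every gene. With library size alone, the median over all tested genes was -0.73, 56% of genes were called higher in nmSC and 7.76% higher in mSC, and Fos (-0.48, adjusted p = 0.0262) and Junb (-0.34, adjusted p = 0.0244) joined the genes called lower in mSC, while Fosb turned to -0.13. A change of scaling moves all genes by nearly the same amount. Distances from the median of all tested genes were therefore nearly the same under both scalings by construction. They were -1.15 and -1.13 for Jun, 0.24 and 0.25 for Fos, 0.39 and 0.38 for Junb, and 0.59 and 0.60 for Fosb under TMM and under library size alone.

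A ratio of 2 genes within a library needs no scaling. This measure was chosen after the values had been seen, with Fos as the reference because it had the most counts. Per 1000 counts of Fos, mSC libraries 1 to 4 held 145.1, 118.5, 104.9 and 81 counts of Jun, and nmSC libraries 388.9, 317.8, 272.4 and 241. There were thus between 6.89 and 12.3 counts of Fos for each count of Jun in mSC and between 2.57 and 4.15 in nmSC. The allSC libraries, at 199.5 to 270.9 counts of Jun per 1000 of Fos, overlapped nmSC but not mSC.

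The ratio was tight for Egr1 in mSC, at 47.8, 47.5, 40.0 and 43.6 counts per 1000 of Fos, against 239.8, 193, 141.1 and 165.3 in nmSC. For Ier2 it was 7.14 ± 2.15 in mSC and 41.3 ± 8.11 in nmSC (SD, n = 4), for Atf3 21.4 ± 3.73 and 49.5 ± 4.46, and for Fosl2 8.47 ± 1.39 and 15.5 ± 2.03. All 5 of these genes had ratios that did not overlap between mSC and nmSC, as had 15.6% of all tested genes in the direction of nmSC and 10.1% in that of mSC. The ratios of Junb, Jund, Fosb and Fosl1 overlapped. A ratio shows that 2 genes changed unequally and does not tell which of them changed.

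**Figure D3:**
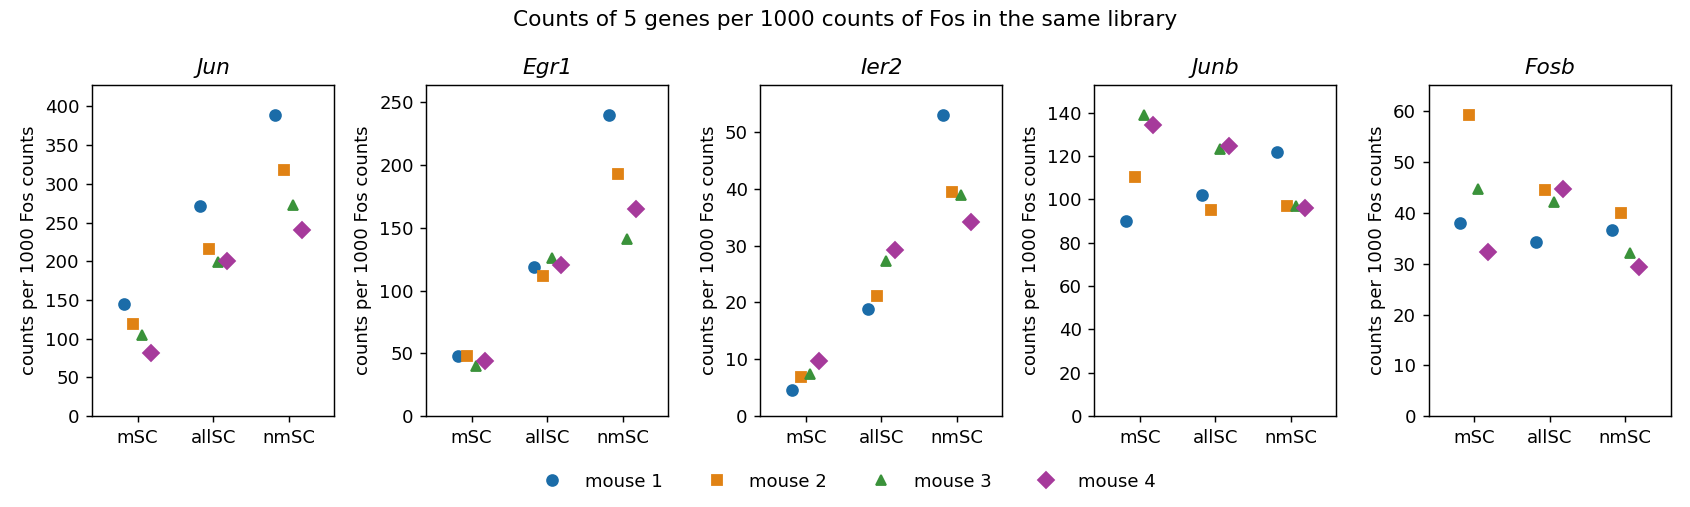
Counts of 5 genes for each 1000 counts of Fos in the same library (y axis), by gate (x axis), with symbols for the mouse number. Jun, Egr1 and Ier2 are lower in all mSC libraries than in all nmSC libraries, and Junb and Fosb overlap between the gates.

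Against allSC, which contains cells of both other gates, the same libraries were compared in 2 further contrasts, which share the allSC samples. In mSC, 4 of the 10 genes were lower than in allSC, against 8.8% of all tested genes, and 0 were higher, against 8.76% (0 also at an unadjusted p under 0.05 in edgeR, while DESeq2's Wald test gave 4 and 0 as well). Ier2 (-1.70, SE 0.17, adjusted p = 6.03e-07) and Egr1 (-1.30, SE 0.20, adjusted p = 1.40e-04) did not overlap between these gates, as 11.5% of all tested genes did not in that direction and 11% in the other. Jun (-0.87, SE 0.27, adjusted p = 0.0328) and Atf3 (-0.69, SE 0.21, adjusted p = 0.0317) overlapped. Both were lower in mSC within each mouse. With the mouse number as a block in edgeR both stayed called (adjusted p = 4.91e-04 for Jun and 0.0136 for Atf3). Their calls were lost in a fit of only these 2 gates (adjusted p = 0.0691 and 0.0647) and without allSC library 1 (adjusted p = 0.131 and 0.135), allSC library 2 (0.0802 and 0.0732), mSC library 3 (0.117 and 0.118) or mSC library 4 (0.0650 and 0.0689), each of which left 2 genes called, and that of Atf3 without mSC library 2 (0.0753).

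In nmSC, 3 of the 10 genes were higher than in allSC, against 2.83% of all tested genes, and 0 were lower, against 7.54% (0 also at an unadjusted p under 0.05 in edgeR, while DESeq2's Wald test gave 3 and 0). They were Ier2 (0.82, SE 0.16, adjusted p = 0.00207), Egr1 (0.64, SE 0.20, adjusted p = 0.0495) and Fosl2 (0.51, SE 0.15, adjusted p = 0.0406). The 3 genes did not overlap between these gates, as 7.3% of all tested genes did not in that direction and 12% in the other. With the mouse number as a block, Fosl2 missed the threshold (adjusted p = 0.0506). Ier2 alone was left when allSC library 1, 2, 3 or 4, mSC library 2, or nmSC library 1, 2 or 3 was left out, with adjusted p values between 0.0527 and 0.177 for the other 2 genes. Jun was higher in nmSC in all 4 mice but did not pass (0.44, SE 0.27, adjusted p = 0.380). With the mouse number as a block in edgeR it came near the threshold (0.48, adjusted p = 0.0554).

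The order of levels is given per kilobase of exon, so that genes can be set beside each other. Fos stood first in every gate, at 964 ± 251 CPM per kb in mSC, 908 ± 160 in allSC and 912 ± 69.6 in nmSC (SD, n = 4), and its libraries lay above those of the other 9 genes. Jun came next in nmSC, at 205 ± 43.4 CPM per kb, and did not overlap Junb at 95.8 ± 11.7. In mSC the order of these Jun genes was turned, with Junb at 112 ± 11.1 and Jun at 82.9 ± 39.3 CPM per kb, although their libraries overlapped. Egr1 and Atf3 followed at nearly equal levels in mSC (23.0 ± 7.65 and 22.7 ± 8.09 CPM per kb), while in nmSC Egr1 reached 87.9 ± 18.2 and overlapped Junb. Fosl2, Jund and Fosl1 were the lowest in all gates, at means between 0.793 and 3.45 CPM per kb.

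Libraries that share a mouse number deviated together for some of these genes. Jun was above its gate's mean in all 3 gates of mice 1 and 2 and below it in all 3 gates of mice 3 and 4. In nmSC library 3 it was only just below, at 640.6 CPM with a gate mean of 653.9 CPM. Averaged over the gates, its deviation on the log2(CPM + 1) scale was 0.56, 0.20, -0.30 and -0.46 in mice 1 to 4, a 2.04-fold range. Egr1 had the same signs, at 0.37, 0.17, -0.33 and -0.22, a 1.62-fold range. Fosb was highest in mouse 2, at 0.41, and lowest in mouse 4, at -0.33.

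**Figure D4:**
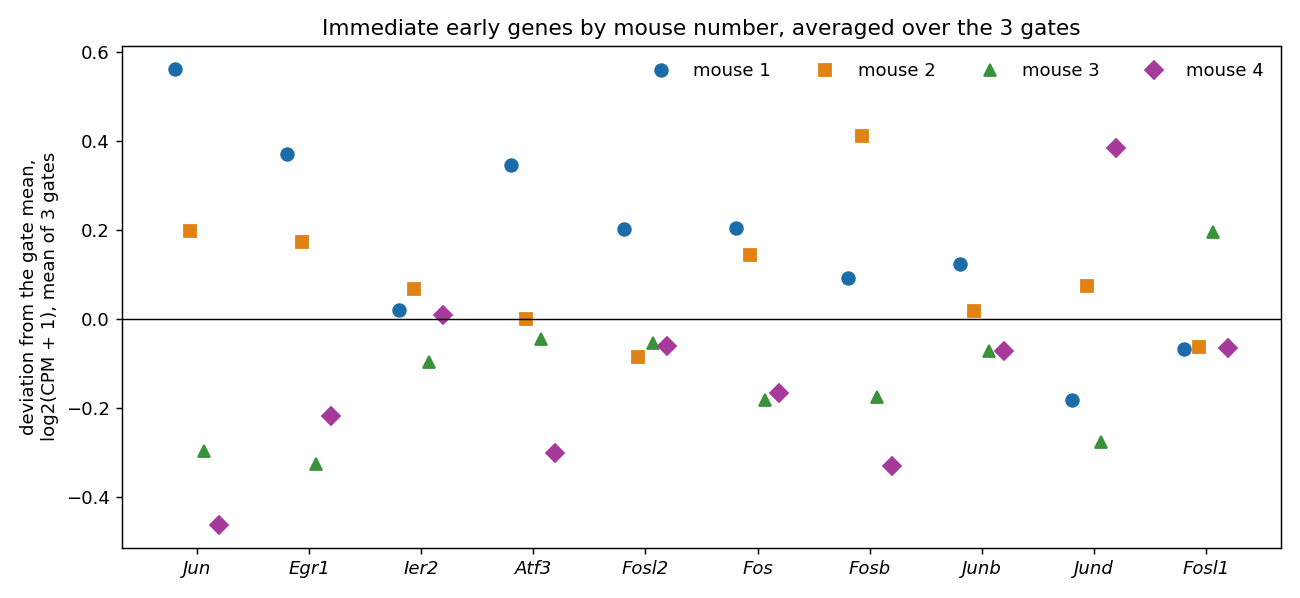
Deviation of each gene from the mean of its gate on the log2(CPM + 1) scale, averaged over the 3 gates (y axis), for each mouse number (symbols) and gene (x axis). Jun runs from 0.56 in mouse 1 to -0.46 in mouse 4, and Ier2 stays near 0 in all 4 mice.

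In a model with gate and mouse number, none of the 10 genes passed by mouse number after adjustment over all tested genes (edgeR's quasi-likelihood F test), as did 0.0538% of all tested genes. At an unadjusted p under 0.05 there were 4, namely Jun (adjusted p = 0.107), Egr1 (0.550), Fosb (0.944) and Atf3 (0.997), against 3.55% of all tested genes. Jun passed in fits without mSC library 4 (adjusted p = 0.0449) or nmSC library 1 (0.0247), with library size alone (0.0449) and without the expression filter (0.0292). It did not pass with the 4 libraries of a gate left out (adjusted p between 0.122 and 1.00). What belongs to the mouse, its sex and the preparation of its cells cannot be told apart here.

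Among the heat shock genes, Hspa1a, an inducible chaperone, and Dnajb1, its cochaperone, were called by mouse number. These were 2 of 11 genes, against 0.0538% of all tested genes. Hspa1a was at 216, 152.9, 50.7 and 43.9 CPM in mSC libraries 1 to 4, at 226, 143, 40.4 and 55.4 CPM in allSC and at 232, 144.5, 62.5 and 43.0 CPM in nmSC. Hspa1a was high in mice 1 and 2 and low in mice 3 and 4 in every gate. Jun had this pattern in mSC and allSC, but in nmSC library 3 Jun lay close to its gate mean. Dnajb1 was at 102, 88.9, 55.3 and 52.1 CPM in mSC (adjusted p = 0.00865 by mouse number). Neither passed between mSC and nmSC, at -0.053 and 0.065 on the log2 scale, and the part of the heat shock response in the values of Jun was not tested.

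Over the 12 libraries, after the gate mean was subtracted, the genes most like Jun on the log2(CPM + 1) scale were Dusp1 (r = 0.949), Col28a1 (0.938), Hspa1a (0.934), Gm20481 (0.932), which overlaps Hspa1a on the other strand, and Socs3 (0.930), among 9400 genes with a mean of at least 10 CPM. Those most like Fos were Adpgk (0.967), Heatr6 (0.954), Dusp1 (0.925), Per1 (0.925) and Ccn1 (0.924). For Jund they were Dazap1 (0.954), Cuedc1 (0.946), Grb2 (0.933), Doc2a (0.933) and Thap4 (0.930). Among the 10 genes themselves, Jun was most like Egr1 (0.903) and Fos (0.889) and little like Ier2 (0.0972). These correlations are descriptions. The 12 libraries carry 4 mouse numbers and are not independent, and the highest of 9400 values is high by selection.

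**Figure D5:**
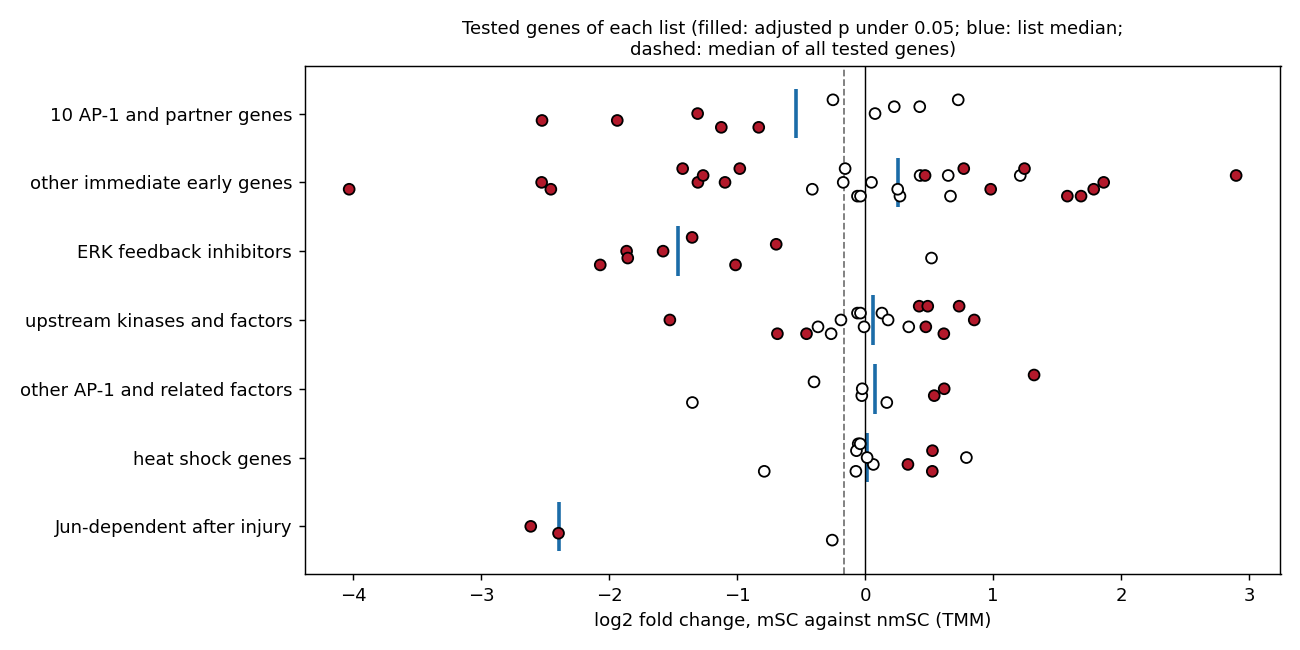
Log2 fold change of mSC against nmSC (x axis) for the tested genes of each list (y axis). Points are filled where the adjusted p was under 0.05, the blue bar is the median of the list and the dashed line that of all tested genes, at -0.16. The ERK feedback inhibitors have 7 filled points to the left of 0, while the other immediate early genes spread to both sides.

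The other immediate early and early response genes went both ways. This list and those that follow were drawn up with earlier results of these data known. Of 29 tested, 9 were higher in mSC, against 20.4% of all tested genes, 8 were higher in nmSC, against 20.2%, and 12 did not pass, with a median log2 fold change of 0.26. Egr3, a zinc finger factor of the same family as Egr1, had the largest difference in the list, at 4.82, 6.17, 5.51 and 3.49 CPM in mSC and 97.7, 80.5, 65.4 and 87.0 CPM in nmSC (-4.03, SE 0.19, adjusted p = 5.74e-12). Myc, a transcription factor of cell growth, was lower in mSC too (-2.53, SE 0.21, adjusted p = 1.11e-08). Nr4a2, an orphan nuclear receptor gene, was higher in mSC, at 224 against 69.4 CPM (1.69, SE 0.13, adjusted p = 4.71e-09), and so was Gadd45b, a stress response gene, at 32.1 against 4.36 CPM (2.90, SE 0.26, adjusted p = 2.94e-08).

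Of 8 genes listed as negative feedback inhibitors of ERK signaling, 7 were higher in nmSC, against 20.2% of all tested genes. The remaining 1 did not pass, and the list median was -1.47. Spry1, 1 of the 7, was near the floor in mSC, at 0 to 0.611 CPM. Dusp1 (0.27, adjusted p = 0.279) and Errfi1 (1.87, adjusted p = 5.54e-08) stood in the list of early response genes and were not counted here. They are named after their values were seen. Dusp6, a phosphatase of ERK, was at 219, 180.2, 113.6 and 87.2 CPM in mSC and at 511, 559, 564 and 547 CPM in nmSC, without overlap (-1.86, SE 0.21, adjusted p = 8.12e-07). Spry2 (-1.85, adjusted p = 6.94e-05), Dusp4 (-1.01, adjusted p = 1.75e-05) and Spred1 (-0.69, adjusted p = 0.00722) were called in the same direction as Jun and Egr1. Dusp5 was the gene that did not pass (0.52, SE 0.27, adjusted p = 0.127). No phosphorylation was measured.

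The kinases and factors upstream of these genes went both ways. Of 18, 6 were higher in mSC (20.4% of all tested genes), 3 higher in nmSC (20.2% of all tested genes) and 9 did not pass, with a median of 0.062. Mapk3 (0.85, SE 0.12), Map2k1 (0.74, SE 0.12), Map2k2 (0.62, SE 0.14) and Mapk9 (0.49, SE 0.13), which code for ERK1, its activating kinases MEK1 and MEK2, and JNK2, were the named genes higher in mSC under TMM. Under library size alone 1 gene of the list was higher in mSC and 10 were higher in nmSC, where 7.76% and 56% of all tested genes were, and Mapk9 turned to -0.067. The 3 genes higher in nmSC, named after their values were seen, were Elk3 (-1.53), Mrtfa (-0.68) and Creb1 (-0.46), and Creb1 missed the threshold with the mouse number as a block (adjusted p = 0.0601).

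Of the 11 other AP-1 and related zipper genes, 8 were tested, of which 3 were higher in mSC, against 20.4% of all tested genes, and 5 did not pass. Maf, a large Maf factor, was at 121 ± 38.9 CPM in mSC and 48.5 ± 16.2 CPM in nmSC (SD, n = 4; 1.321, SE 0.22, adjusted p = 6.80e-05). Mafg was higher by 0.54 (SE 0.15, adjusted p = 0.00631), and turned to -0.018 under library size alone. Batf2, named after its values were seen, missed the threshold with the mouse number as a block (adjusted p = 0.0672 in place of 0.0440). Atf2 (0.17, adjusted p = 0.345) and Atf7 (-0.025, adjusted p = 0.887), partners of Jun at cAMP response elements, did not pass. The list median was 0.074.

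Of the heat shock genes, 3 of 11 were higher in mSC, against 20.4% of all tested genes, and 8 did not pass, with a median of 0.016. They were Hsp90ab1 (0.53, SE 0.12), Dnaja1 (0.53, SE 0.13) and Hspa8 (0.34, SE 0.13; adjusted p = 0.0493, and 0.0526 with the mouse number as a block), which turned to -0.048, -0.054 and -0.23 under library size alone. Hspd1 was at -0.067 (adjusted p = 0.680). Reads of Hspa1a and Hspa1b, near-identical copies, may have been split by the counting.

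Of the 7 genes known to depend on Jun in injured Schwann cells, 3 were tested. Ngfr, the p75 neurotrophin receptor gene, at 41.7 against 255 CPM (-2.61, SE 0.20, adjusted p = 2.89e-09), and Cdh2, the gene of N-cadherin, at 9.73 against 51.7 CPM (-2.40, SE 0.20, adjusted p = 1.27e-08), were higher in nmSC, and Bdnf, at 0.804 against 0.974 CPM, did not pass. The injury genes Shh, Gdnf, Artn and Olig1 had means between 0.0482 and 0.738 CPM in these gates, at or near the limit of 3 counts, and were not tested.

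Markers of other cell types were low except for 2 genes. Endothelial markers summed to between 1.71 and 4.92 CPM per library and immune markers to between 12.97 and 26.8 CPM, and Aif1, an immune marker, was at 0 in all mSC libraries. Of the endothelial markers 1 of 2 tested (Pecam1) and of the immune markers 1 of 3 tested (Cd68) were higher in nmSC, against 20.2% of all tested genes. The fibroblast markers summed to between 422 and 1031 CPM in mSC and between 2919 and 4097 CPM in nmSC. Of these markers 1 of 4 was called higher in nmSC, against 20.2% of all tested genes. The fibroblast sum moved with the 5 genes and was mostly Col1a1, at 787 against 3418 CPM, whereas Pdgfra, at 2.34 CPM in both gates, and Cd34, at 1.45 and 2.74 CPM, were low. Dcn, at 12.8 CPM in mSC and 8.47 CPM in nmSC, leaned the other way and did not pass (adjusted p = 0.204). The mural cell markers summed to between 46.4 and 176 CPM, with Pdgfrb, 1 of 3, higher in mSC, against 20.4% of all tested genes. Among the Schwann cell markers, S100b was higher in mSC and Erbb3, a neuregulin receptor gene, higher in nmSC (-0.79, SE 0.19, adjusted p = 0.00318). The part of other cell types in the values of the 10 genes was not tested.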

How the data were processed

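RNA of Schwann cells sorted through 3 gates from 4 mice was measured in 12 libraries by Smart-Seq2, a full-length method for polyadenylated RNA. Reads were trimmed by the authors, aligned with STAR (2.6.1c, to GRCm38.p5 in the submitters' processing notes) and counted per gene with featureCounts, and these raw counts were deposited. Strand, multi-mapping and overlap options are not given in the sources used here.

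From the counts, TMM factors, the expression filter by gate (minimum count of 10) and quasi-likelihood tests in 1 model over the 12 libraries were computed with edgeR 4.0.16 (R 4.3.3), adjusted over 18597 genes at a threshold of 0.05. For each of the 10 genes, an exact permutation test (two-sided) compared log2(CPM + 1) between mSC and nmSC. Symbols, positions and exon lengths came from GENCODE M21 (GRCm38), which matched 25664 of 25700 identifiers. The steps were tested on simulated data. A chi-square comparison of counts, run only between libraries of the same gate, found no duplicated library. In it mSC library 4 lay far from the other mSC libraries, at 50.6 to 95.7 per degree of freedom. The other mSC libraries lay at 6.01 to 22.1 from each other.

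Gates came from the sample titles, and libraries were paired by the subject number in the labels. The main tests between gates fitted the gate alone and did not use this pairing. It entered the alternative with the mouse number as a block and the test by mouse number. Over all tested genes, deviations of same-numbered libraries from their gate means correlated between -0.225 and 0.246. Both sexes are present in each gate, but sex was not used, since the labels do not give it per library.

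The 10 genes and all lists were chosen with earlier results of these data known. Genes of other lists are named by a rule, up to 4 per list with the smallest adjusted p between mSC and nmSC and a mean of at least 10 CPM, and up to 3 by mouse number, beside the cell type markers (some of which are not reported here), overlapping genes and the 5 genes most like Fos, Jun and Jund. Alternatives were other size factors, library size alone, other filters, DESeq2 1.42.0, fits of 2 gates, the mouse number as a block, other pseudocounts and leaving out each library. Setting the median of all genes to 0, leaving out a gate or a mouse, and ratios to Fos were added after the data had been seen.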

Additional observations from a re-analysis of the deposited data

Results flagged for a closer look

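Of the 30 groups of 4 libraries, each being 1 of the 10 genes in 1 gate, 2 held a library far from the others by Dixon's test at the 95% level, which flags about 1 in 20 groups by chance. Jund in the allSC gate was at 6.83 CPM in library 4 and between 1.89 and 2.69 CPM in the others, with a gap of 0.838 of the range. This rests on 68 counts against 26 to 40. Atf3 in the nmSC gate was at 130.1 CPM in library 3 and between 97.2 and 100.5 CPM in the others, a gap of 0.901 of the range. Without that library, Atf3 was still lower in mSC than in nmSC.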

How the results depend on the processing

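The 5 genes called lower in mSC than in nmSC kept their direction and their side of the threshold in every alternative run, the exact sign flips of same-numbered pairs aside, which gave 0 genes because 4 pairs allow no p under 0.125. Scaling by library size alone turned the sign of Junb (-0.34), Fos (-0.48) and Fosb (-0.13) between mSC and nmSC, of Junb (-0.16), Fos (-0.22), Fosb (-0.11) and Fosl1 (-0.21) between mSC and allSC, and of Junb (0.18) and Fosb (0.024) between nmSC and allSC. It gave 1 gene higher in mSC and 4 higher in nmSC among the 8 tested other AP-1 genes, and 14 higher in nmSC among the 29 other immediate early genes. Among the 18 upstream genes it gave 1 and 10, and among the 11 heat shock genes 0 and 3. Of all tested genes, 7.76% were higher in mSC and 56% higher in nmSC under that scaling. Fos, at 0.0064 between nmSC and allSC, turned to -0.000233 with DESeq2's size factors, -0.00978 without a filter, -0.000229 with the Wald test of DESeq2 and -0.033 with the median of all genes set to 0. The Wald test of DESeq2 and that median setting each called 1 gene, Junb, higher in mSC than in nmSC, and the latter left 1 gene higher in nmSC than in allSC. A fit of 2 gates left 2 genes lower in mSC than in allSC and gave 4 higher in nmSC than in allSC, with Atf3 gained (adjusted p = 0.0413), while without a filter Fosl2 was lost there (0.0648). By mouse number, library size alone and no filter each called 1 gene, Jun. Without mouse 4, 2 genes were higher in mSC than in nmSC, and without mouse 1 Jund turned to 0.39 and Fos to -0.081.

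Leaving out 1 library at a time, the number higher in mSC than in nmSC was 0 to 2, lower in mSC than in allSC 2 to 5, higher in nmSC than in allSC 1 to 3, and called by mouse number 0 to 1. Log2 fold changes ran from -0.050 to 0.22 for Fos and -0.53 to 0.14 for Jund between mSC and nmSC, from -0.038 to 0.25 for Fos, -0.077 to 0.38 for Fosb and -0.10 to 0.36 for Fosl1 between mSC and allSC, and from -0.073 to 0.097 for Fos between nmSC and allSC. With the mouse number as a replicate block, Fosl2 between nmSC and allSC (adjusted p = 0.0506) was the one call on the 10 genes that changed, and the number higher in nmSC than in allSC was 2 in place of 3. The causes were not tested, other than that library size alone moves all genes by construction. Depth limits Jund and Fosl1, at 7 to 93 counts per library.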
